A study of Rattus norvegicus with 12 samples.

Results

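The G2 and mitosis genes examined here are 34 genes whose products take a cell from the end of DNA replication through chromosome segregation to the separation of the daughter cells. The list is one of names, by textbook roles, and no measured value enters its rule, though earlier results of these data were known when it was drawn up. All 34 matched a row among the 30045 of the deposited count table, and all 34 passed the filter on low counts, which left 17330 genes for testing. The cells were theca-interstitial cells, which surround the ovarian follicle and make androgens, isolated from wild type female Sprague Dawley rats on postnatal day 30. All cultures grew on plates coated with human fibronectin in McCoy's 5A medium, and the groups were 4 control cultures with vehicle, 4 with rat IL-1b, a cytokine of inflammation, and 4 with LPS, a cell wall component of gram-negative bacteria. Treatment lasted 48 h. LPS was given at 1 µg/ml, and the labels leave unclear whether that concentration also holds for IL-1b. The title of the study names androgen production and proliferation, and the comparisons of each treatment with control address the latter through transcripts of dividing cells.

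Entry into mitosis depends on cyclin-dependent kinase 1 (Cdk1), which is switched on by binding A and B type cyclins. Aurora and Polo kinases then build the spindle, the checkpoint holds the anaphase-promoting complex (APC/C) back until every kinetochore is attached, and a central spindle marks the plane where a contractile ring divides the cell. Most of these genes are transcribed only late in the cycle. In resting cells the DREAM complex holds their promoters down, and in cycling cells B-Myb with the MuvB core and then FoxM1 drive them, through a promoter element called the cell cycle genes homology region (CHR) and, nearby, CCAAT boxes bound by NF-Y.

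The promoters of the genes with the smallest p-values are shown first because each carries one or both kinds of element. Windows from RefSeq, on the rat build GRCr8, were at hand for 29 of the 34 genes (30 windows). None was at hand for Ccna2, Tpx2, Aurkb, Racgap1 and Ube2c. The 250 bases before each annotated start were searched on both strands for the CHR forms TTTGAA and TTTAAA, the second of which reads the same on either strand, and for CCAAT. In the windows of Cdca8 and Mki67 a TTTGAA match shares 1 letter with a CCAAT match on the other strand. The 4 sequences below are the last 100 bases before the start, 5′ to 3′ on the gene's strand, with matches on either strand in capitals: Kif23 at chr8:71320585-71320684 (minus strand), Anln at chr8:29197514-29197613 (minus strand), Cdk1 at chr20:19265193-19265292 (plus strand) and Prc1 at chr1:143659381-143659480 (plus strand).
Kif23: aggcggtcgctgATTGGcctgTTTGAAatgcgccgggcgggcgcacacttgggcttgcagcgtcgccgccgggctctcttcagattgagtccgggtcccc
Anln: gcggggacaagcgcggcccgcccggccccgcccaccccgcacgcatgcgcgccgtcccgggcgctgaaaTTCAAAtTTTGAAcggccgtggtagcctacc
Cdk1: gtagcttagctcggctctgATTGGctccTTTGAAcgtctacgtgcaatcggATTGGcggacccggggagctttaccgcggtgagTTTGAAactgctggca
Prc1: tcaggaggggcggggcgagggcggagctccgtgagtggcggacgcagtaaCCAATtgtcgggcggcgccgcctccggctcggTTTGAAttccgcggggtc

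All 4 windows held TTTGAA, and Kif23, Cdk1 and Prc1 held a CCAAT box on one strand or the other. Anln held 2 copies of the CHR form, on opposite strands and next to each other, and no CCAAT box in the 250 bases. Over the 30 windows of the 34 genes, TTTGAA stood in 13 (43.3%), against 16.2% of all 33469 rat promoter windows of the same length. TTTAAA stood in 10 (33.3% against 12.3%) and CCAAT in 21 (70.0% against 34.02%). A CHR form together with CCAAT stood in 19 windows (63.3%), against 9.04% of all windows. These shares describe letters in the windows and were not tested, and a match is not a measured binding site.

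A group of facts on the libraries bears on all values below. The libraries held 20873934 to 32090924 counts in the control group, 23193408 to 26836323 in the IL-1b group and 25643226 to 28698783 in the LPS group, and the 34 genes had between 259 and 8077 counts each in every library. Levels are given in CPM, a count brought to the same scaled total in every library, and are compared within a gene only, since the counts are not per transcript length. LPS replicate 3 stood apart. It had the highest level of the LPS libraries for 26 of the 34 genes, whereas LPS replicate 1 had the lowest for 22. Of the control libraries, replicate 4 was the highest for 20 of the 34 genes and replicate 1 the lowest for 19. On the log2 scale the mean of the 34 genes lay between -0.06 and 0.07 around the control mean in the control libraries and between -0.22 and -0.16 in the IL-1b libraries. In LPS replicates 1 to 4 it was -0.24, -0.18, -0.02 and -0.14, so that replicate 3 fell within the range of the controls. In the list of 45 S phase genes the same library was at 0.06 and the other LPS libraries between -0.09 and -0.08. For the 34 genes as a whole, the count called with LPS, the median and the calls that change are therefore also given without replicate 3. Counts of genes with no overlap, counts and medians by role or promoter element, and those of other lists include it. Whether the replicates are separate animals or isolations is not stated, and p-values then reflect just the spread among these libraries, which may be technical.

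**Figure D1:**
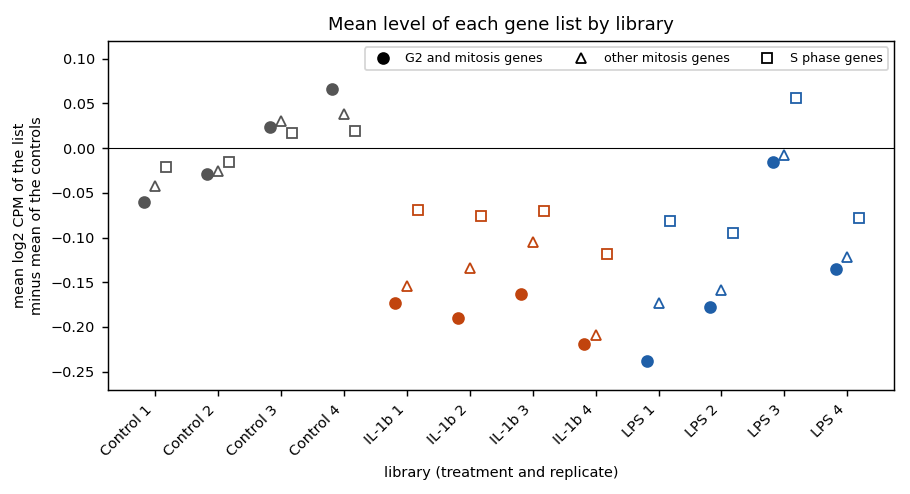
The vertical axis is the mean log2 CPM of a gene list minus its mean in the 4 control libraries, the horizontal axis the 12 libraries, and symbols mark the G2 and mitosis genes (filled circles), other mitosis genes (triangles) and S phase genes (squares). All 4 IL-1b libraries and 3 of the 4 LPS libraries lie below every control library for the G2 and mitosis genes, and LPS replicate 3, at -0.02, does not.

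IL-1b was compared with control first. Transcripts of the G2 and mitosis genes were modestly lower: 19 of the 34 fell, 0 rose and 15 did not pass the test (edgeR's quasi-likelihood test, Benjamini-Hochberg adjusted p under 0.05 over all genes tested). Over all 17330 genes, 23.0% fell and 24.7% rose, so 55.9% of the 34 stands against a background of 23.0%. The median log2 fold change of the 34 was -0.16, against 0.01 over all genes, and 30 of the 34 values were below 0. In 16 of the 34 genes every IL-1b library was below every control library, which held for 21.4% of all genes. Except for Kif23, which fell to 50.1% of control, the genes that fell kept between 76.4% and 91.9% of their control level. Without Kif23 the median was -0.15. Leaving out 1 library at a time, from 14 to 23 of the 34 genes fell. The count of 14 came without control replicate 4, with a median of -0.14. In bulk RNA, fewer dividing cells and less RNA of these genes in each cell cannot be told apart.

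With LPS 17 of the 34 fell, 0 rose and 17 did not pass the test, or 50% of the genes against 20.0% of all genes that fell and 22.5% that rose. The median was -0.14, against 0.01 over all genes, and again 30 values were below 0. Every LPS library was below every control library in 6 of the 34. This share was near the 18.2% of all genes, so that count is no result about the list. Without LPS replicate 3 the count that fell was 21 and the median -0.17. Other single libraries moved this count further and the other way, to 9 without control replicate 4 and to 10 without LPS replicate 1. The median was -0.11 in each of these 2 fits. The calls gained without LPS replicate 3 were Cenpf (-0.11, edgeR adjusted p = 0.0329), Kif11 (-0.14, adjusted p = 0.0365), Racgap1 (-0.13, adjusted p = 0.0299) and Ube2c (-0.20, adjusted p = 0.0307), all lower, and all 17 calls were kept.

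Of the 19 calls with IL-1b, 5 were lost in some of 22 alternative settings: Racgap1 in 11, Kif2c and Nuf2 in 9 each, Ccnb1 in 4 and Bub1 in 3. Of the 17 with LPS, 8 were: Bub1 in 10, Bub1b and Hmmr in 8 each, Ndc80 in 6, and Ccna2, Ccnb2, Cdc20 and Kif20a in 4 each. Each of these 13 calls was lost when control replicate 4 was left out. Both treatments were set against the same 4 control libraries, so their values are given side by side below and are not independent of each other.

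The scaling of the libraries mattered to the split of calls. With TMM scaling, 51.7% of all genes called with IL-1b and 53.0% with LPS were higher. With totals alone those shares were 64.1% and 63.4%, the median over all genes was 0.06 and 0.05, and 14 and 10 of the 34 genes fell, with 0 higher in either treatment.

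**Figure D2:**
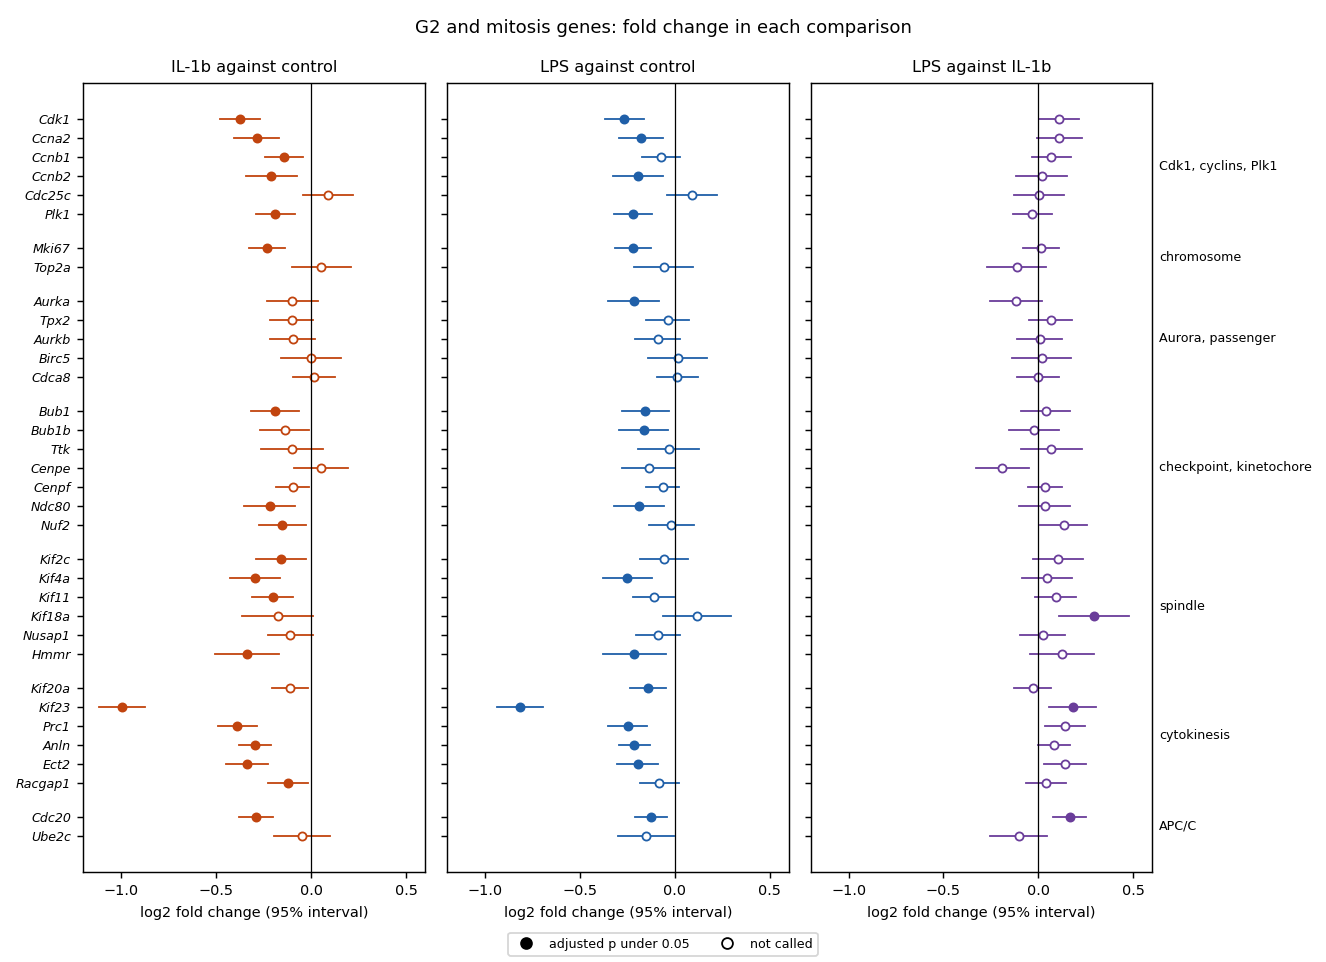
Points are log2 fold changes of the 34 genes, by role, with 95% intervals, for IL-1b against control, LPS against control and LPS against IL-1b; filled points have an adjusted p under 0.05. Kif23 lies at -0.996 and -0.82 against control, apart from the other 33 genes, whose lowest values are -0.39 (Prc1, IL-1b) and -0.27 (Cdk1, LPS).

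Of the 6 genes that drive entry into mitosis, 5 fell with IL-1b and 4 with LPS, with medians of -0.20 and -0.18. The shares that fell, 83.3% and 66.7%, stand against 23.0% and 20.0% of all genes. Cdk1, the kinase itself, stood at 53.1, 52.7, 53.7 and 58.4 CPM in control replicates 1 to 4, at 42.8, 40.2, 42.6 and 42.4 with IL-1b and at 41.3, 43.8, 50.9 and 45.4 with LPS. Every treated library was below every control library. Its log2 fold change was -0.37 ± 0.05 with IL-1b (SE here and after each log2 fold change, 4 libraries a group; edgeR adjusted p = 9.65e-07) and -0.27 ± 0.05 with LPS (adjusted p = 9.58e-05), or 77.1% and 83.1% of control.

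Ccna2, the A type cyclin of S phase and G2, measured 29.9, 30.4, 34.3 and 33.2 CPM in the controls, 27.0, 24.9, 27.3 and 25.0 with IL-1b and 25.1, 27.9, 29.6 and 30.2 with LPS. The IL-1b libraries lay below all controls, and the highest LPS library exceeded the lowest control. It fell in both treatments, by log2 fold changes of -0.29 ± 0.06 (edgeR adjusted p = 0.00015) and -0.18 ± 0.06 (adjusted p = 0.0128). Ccnb2, a B type cyclin, measured 16.2, 16.4, 15.8 and 17.3 CPM in the controls, 13.0, 15.6, 13.8 and 14.5 with IL-1b and 13.5, 15.6, 14.3 and 14.2 with LPS. All 8 treated libraries were below all controls, by margins as small as that between 15.6 and 15.8 CPM, and the log2 fold changes were -0.21 ± 0.06 (adjusted p = 0.0086) and -0.19 ± 0.06 (adjusted p = 0.016). Ccnb1, the main partner of Cdk1 at mitotic entry, fell with IL-1b (-0.14 ± 0.05, adjusted p = 0.0182) and was at -0.07 ± 0.05 with LPS, which did not pass (adjusted p = 0.233). Ccna2 and Ccnb2 did not pass with LPS when LPS replicate 1 was left out (-0.13 and -0.16).

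Plk1, the Polo kinase that helps to activate Cdk1 and to mature the spindle poles, stood at 32.2, 33.9, 34.5 and 34.9 CPM in the controls, 29.4, 29.5, 30.8 and 29.0 with IL-1b and 28.1, 27.5, 32.2 and 28.5 with LPS. LPS replicate 3, at 32.2 CPM, was the sole treated library as high as a control. Plk1 fell in both treatments (-0.19 ± 0.05 and -0.22 ± 0.05, edgeR adjusted p = 0.00225 and 0.000505). Cdc25c, the phosphatase that removes the inhibitory phosphates from Cdk1, was the one gene of the 6 above 0 in both treatments, at 0.09 ± 0.06 and 0.09 ± 0.06, and passed in neither (adjusted p = 0.28 and 0.264). It passed as higher with LPS in the fit without LPS replicate 2.

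Of the 2 genes that act on chromosome structure, Mki67 fell and Top2a did not pass. Mki67, whose product coats mitotic chromosomes and is the usual marker of proliferating cells, measured 247, 255, 270.0 and 266 CPM in control replicates 1 to 4, 231, 212, 221 and 217 with IL-1b and 217, 212, 248 and 216 with LPS. Every IL-1b library was below every control, and LPS replicate 3 reached the lowest control. The log2 fold changes were -0.23 ± 0.04 (edgeR adjusted p = 0.000309) and -0.22 ± 0.04 (adjusted p = 0.00067), or 85.0% and 85.9% of control. Without LPS replicate 3 the LPS value was -0.27. Top2a, the topoisomerase that untangles sister chromatids, ran from 78.0 to 94.6 CPM in the controls, from 81.3 to 91.8 with IL-1b and from 75.3 to 89.4 with LPS. Its intervals spanned 0 in both treatments (-0.10 to 0.21 with IL-1b and -0.21 to 0.10 with LPS).

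The 5 genes of the Aurora kinases and their partners had medians of -0.10 and -0.04, and 0 of 5 fell with IL-1b and 1 with LPS. Over all genes 23.0% fell with IL-1b and 20.0% with LPS, so the LPS share of this role (20%) was that of all genes. Aurka, the kinase of the spindle poles, fell with LPS (-0.22 ± 0.06, edgeR adjusted p = 0.0077) and was at -0.10 ± 0.06 with IL-1b (adjusted p = 0.217). The difference between the treatments, -0.12 ± 0.07, did not pass (adjusted p = 0.22). Tpx2, which activates Aurka on the spindle, was at -0.10 and -0.04 and passed in neither treatment. The remaining 3 belong to the chromosomal passenger complex, which corrects faulty attachments and later moves to the midzone. Its kinase Aurkb was at -0.10 and -0.09. Birc5 (survivin) had intervals of -0.16 to 0.16 with IL-1b and -0.14 to 0.17 with LPS. Cdca8 (borealin) had the narrower intervals -0.09 to 0.13 and -0.10 to 0.12. The intervals of Aurkb (lower ends -0.22 and -0.21), Birc5 and Cdca8 all leave out a drop as large as the -0.37 and -0.27 of Cdk1.

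Among 7 genes of the spindle checkpoint and the kinetochore, 3 fell with IL-1b and 3 with LPS, and both medians were -0.14. The share that fell was 42.9% in each treatment, against 23.0% and 20.0% of all genes. Bub1, a checkpoint kinase of the kinetochore, ran from 39.3 to 44.1 CPM in the controls and from 33.3 to 37.2 with IL-1b, without overlap, and from 33.4 to 42.3 with LPS. It fell in both treatments (-0.19 ± 0.06 and -0.16 ± 0.06, edgeR adjusted p = 0.012 and 0.0421), and the LPS call was lost in 10 of 22 alternative settings, with adjusted p up to 0.153. Ndc80, which with Nuf2 forms the arm that holds microtubules, fell in both (-0.22 ± 0.06 and -0.19 ± 0.06, adjusted p = 0.00725 and 0.0211). Nuf2 fell with IL-1b (-0.15 ± 0.06, adjusted p = 0.0376, lost in 9 of 22 settings, DESeq2 among them) and was at -0.02 with LPS. Bub1b (BubR1), part of the inhibitor of the APC/C, fell with LPS (-0.16 ± 0.06, adjusted p = 0.0363) and was at -0.14 ± 0.06 with IL-1b (adjusted p = 0.0678). Neither difference between the treatments passed (adjusted p = 0.114 for Nuf2 and 0.852 for Bub1b).

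The checkpoint kinase Ttk (Mps1) and the large kinetochore protein Cenpf passed in neither treatment (-0.10 and -0.03 for Ttk, -0.10 and -0.06 for Cenpf). Cenpe, the kinesin that carries chromosomes to the metaphase plate, was at 0.05 ± 0.07 with IL-1b and -0.14 ± 0.07 with LPS. It was the gene with the lowest value in LPS against IL-1b, -0.19 ± 0.07, just outside the threshold (adjusted p = 0.0527). Its LPS libraries ran from 52.3 to 54.4 CPM and its IL-1b libraries from 53.7 to 66.5.

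Of 6 genes of the spindle, 4 fell with IL-1b and 2 with LPS (medians -0.19 and -0.10). As shares these were 66.7% and 33.3%, against 23.0% and 20.0% of all genes. Kif4a, a kinesin of chromosome arms and the midzone, stood at 23.5, 23.1, 23.2 and 24.6 CPM in the controls, 20.1, 18.4, 18.7 and 19.7 with IL-1b and 17.7, 18.9, 23.2 and 19.8 with LPS. LPS replicate 3 was at the level of the controls and the other 7 treated libraries were below them. The log2 fold changes were -0.30 ± 0.06 (edgeR adjusted p = 0.000328) and -0.25 ± 0.06 (adjusted p = 0.00177). Hmmr, a microtubule-binding protein of the spindle poles, fell in both (-0.34 ± 0.08 and -0.21 ± 0.08, adjusted p = 0.00166 and 0.0351). Kif11, the motor that pushes the poles apart, fell with IL-1b (-0.20 ± 0.05, adjusted p = 0.00233) and was at -0.11 ± 0.05 with LPS. Kif2c, which takes microtubule ends apart at kinetochores, fell with IL-1b (-0.16 ± 0.06, adjusted p = 0.0402, lost in 9 of 22 settings, DESeq2 and limma-voom among them) and was at -0.06 with LPS. Nusap1, a microtubule bundler near chromosomes, passed in neither (-0.11 and -0.09).

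Kif18a, the kinesin that limits chromosome oscillation, was the one gene of the spindle above 0 with LPS. It measured 14.4, 13.0, 15.2 and 14.2 CPM in control replicates 1 to 4, 13.3, 11.1, 13.6 and 12.1 with IL-1b and 13.3, 14.7, 18.7 and 14.8 with LPS. LPS replicate 3, at 18.7 CPM, was the highest of the 12 libraries, and all groups overlapped. Neither value against control passed (-0.18 ± 0.09 and 0.12 ± 0.09).

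**Figure D3:**
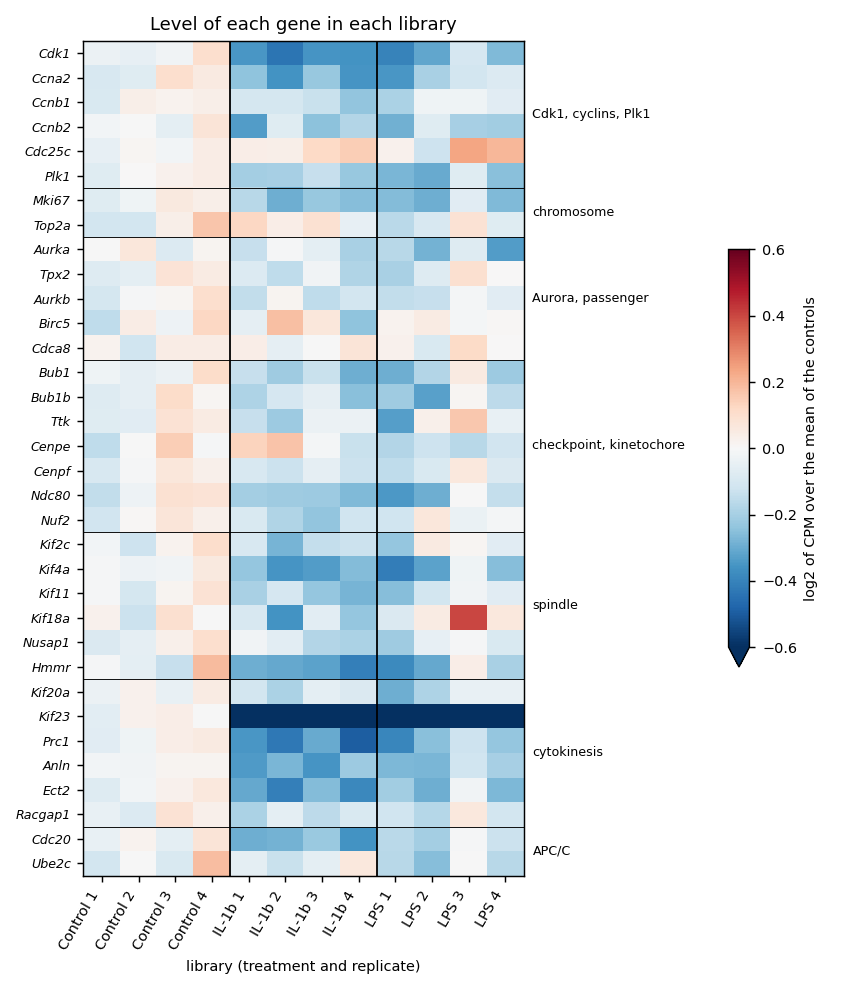
Colour gives log2 of each gene's CPM over its mean in the 4 control libraries, for the 34 genes (rows, by role) in the 12 libraries (columns), on a scale cut at -0.6 and 0.6. Kif23 is at the dark end in all 8 treated libraries, the other cytokinesis genes and Cdk1 are mostly pale to medium blue, and the column of LPS replicate 3 is mostly paler than those of the other LPS libraries.

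The 6 cytokinesis genes had the lowest median of the roles with IL-1b, -0.32, and the lowest with LPS, -0.20. In each treatment 5 of the 6 fell (83.3%, against 23.0% of all genes with IL-1b and 20.0% with LPS). Kif23 (MKLP1) is the kinesin that joins Racgap1 in the centralspindlin complex, which bundles the midzone and calls Ect2 to the cell equator. Kif23 measured 113, 119.7, 121 and 118 CPM in control replicates 1 to 4, 57.6, 58.2, 63.3 and 56.6 with IL-1b and 59.7, 62.9, 73.7 and 71.2 with LPS. The lowest control and the highest treated library were far apart, by more than the spread within any group. With group means of 118 ± 3.63, 58.9 ± 3.03 and 66.9 ± 6.63 CPM (SD, n = 4), it fell to 50.1% of control with IL-1b (-0.996 ± 0.06, edgeR adjusted p = 4.60e-10) and to 56.8% with LPS (-0.82 ± 0.06, adjusted p = 5.84e-09). Across all alternative settings its values ran from -1.03 to -0.95 with IL-1b and from -0.86 to -0.77 with LPS.

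Racgap1, the GTPase-activating partner of Kif23 in centralspindlin, ran from 34.4 to 38.7 CPM in the controls, from 31.9 to 34.9 with IL-1b and from 32.3 to 38.0 with LPS. It fell with IL-1b (-0.12 ± 0.05, edgeR adjusted p = 0.0485), a call that was lost in 11 of 22 alternative settings, and was at -0.08 ± 0.05 with LPS (adjusted p = 0.205). The ratio of Kif23 to Racgap1 counts, which does not depend on library scaling, was 3.19, 3.48, 3.12 and 3.16 in the controls, 1.80, 1.67, 1.94 and 1.66 with IL-1b and 1.78, 1.94, 1.94 and 2.11 with LPS. All 8 treated ratios lay below all 4 control ratios. The mean log2 ratio differed from control by -0.88 with IL-1b and by -0.74 with LPS. This ratio was formed after the values of both genes were seen, so it is given as a description with no test.

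Prc1, which crosslinks antiparallel microtubules of the midzone, stood at 84.0, 86.6, 90.6 and 91.6 CPM in the controls, 69.2, 65.6, 71.6 and 62.6 with IL-1b and 67.2, 74.0, 80.9 and 75.0 with LPS. No treated library reached the controls, and 3 of the 4 LPS libraries lay above all IL-1b libraries. It fell to 76.4% and 84.2% of control (-0.39 ± 0.05 and -0.25 ± 0.05, edgeR adjusted p = 1.78e-06 and 0.000345). Ect2, the exchange factor that activates RhoA at the equator, measured 35.4, 37.0, 38.1 and 39.1 CPM in the controls, 30.2, 28.2, 31.2 and 28.6 with IL-1b and 32.4, 30.5, 36.8 and 31.0 with LPS, and only LPS replicate 3 overlapped the controls. Ect2 fell in both (-0.34 ± 0.05 and -0.20 ± 0.05, adjusted p = 6.76e-06 and 0.00349).

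Anln, the scaffold that ties RhoA, actin, myosin and septins together in the ring, had the smallest SD of the cytokinesis genes in the controls. It stood at 54.9, 54.8, 56.3 and 56.3 CPM there, at 43.9, 46.0, 43.5 and 47.9 with IL-1b and at 46.2, 46.0, 51.3 and 48.4 with LPS, with no overlap of either treatment with control. Its log2 fold changes were -0.30 ± 0.04 (edgeR adjusted p = 6.90e-07) and -0.21 ± 0.04 (adjusted p = 7.73e-05). Kif20a (MKLP2), which brings the passenger complex to the midzone, measured 56.5, 59.0, 56.2 and 59.8 CPM in the controls, 53.6, 50.7, 55.5 and 54.5 with IL-1b and 47.1, 50.8, 56.0 and 56.0 with LPS. Its treated libraries lay below all controls by a narrow margin. It fell with LPS (-0.14 ± 0.05, adjusted p = 0.0155) and did not pass with IL-1b (-0.11 ± 0.05, adjusted p = 0.0527).

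**Figure D4:**
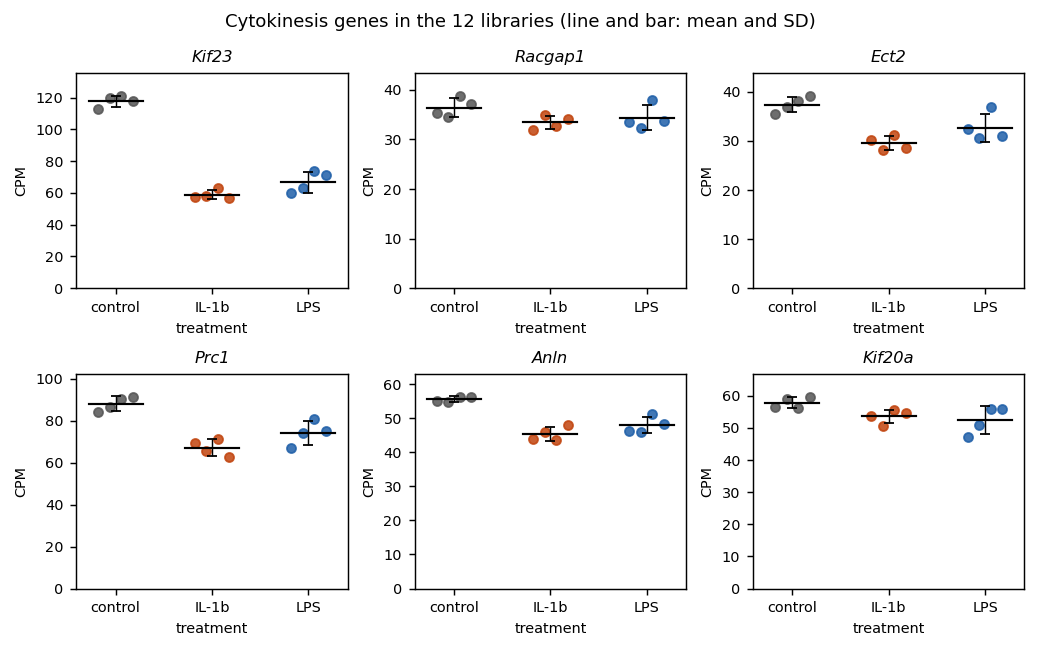
Points are CPM of the 6 cytokinesis genes in the 4 libraries of each treatment, with lines and bars for mean and SD (n = 4) and axes that start at 0. Kif23 goes from 118 to 58.9 and 66.9 CPM, while its partner Racgap1 goes from 36.4 to 33.4 and 34.4.

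Of the 2 genes that act with the APC/C, Cdc20 fell in both treatments and Ube2c did not pass. Cdc20, its mitotic activator, stood at 58.0, 60.7, 57.5 and 63.2 CPM in control replicates 1 to 4, 48.8, 49.2, 51.2 and 46.6 with IL-1b and 53.5, 52.0, 59.5 and 54.8 with LPS. The IL-1b libraries lay below all others, and LPS replicate 3 lay within the control range. The log2 fold changes were -0.29 ± 0.04 with IL-1b (edgeR adjusted p = 2.24e-06) and -0.13 ± 0.04 with LPS (adjusted p = 0.0176). Ube2c, the ubiquitin-conjugating enzyme that works with the APC/C, passed in neither (-0.05 ± 0.07 and -0.15 ± 0.07, adjusted p = 0.61 and 0.0934).

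LPS was then compared with IL-1b directly, to ask whether the treatments differed in these genes. Of the 34, 3 were higher with LPS (8.82%), 0 were lower and 31 did not pass, against 11.3% of all genes higher and 10.6% lower. The share higher was near that of all genes, so it is no result about the list. The median was 0.04, and without LPS replicate 3 it was 0.00. The 3 were Cdc20 (0.16 ± 0.04, edgeR adjusted p = 0.00662), Kif18a (0.29 ± 0.09, adjusted p = 0.0205) and Kif23 (0.18 ± 0.06, adjusted p = 0.0393). In the 22 alternative settings the call of Kif23 was lost in 10, that of Kif18a in 4 and that of Cdc20 in 0. Cdc20 was the 1 gene of the 34 with every LPS library above every IL-1b library, which 11.1% of all genes showed. Without LPS replicate 3, Cdc20 alone remained called (0.13, adjusted p = 0.0379), with Kif23 at 0.13 (adjusted p = 0.0884) and Kif18a at 0.19 (adjusted p = 0.0851). The count was also 1 without IL-1b replicate 2 and without IL-1b replicate 4. It was 5 without IL-1b replicate 3 and 6 without LPS replicate 1, where Cdk1, Ccna2 and Prc1 passed as well. Prc1 was just outside the threshold with all libraries (0.14 ± 0.05, adjusted p = 0.0501).

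The 34 genes were set beside other genes of the cell cycle, listed by their roles. Among 78 other mitosis genes (checkpoint, condensin, centromere, motor and spindle pole genes), 36 fell and 5 rose with IL-1b, and 28 fell and 2 rose with LPS. The shares that fell, 46.2% and 35.9%, stand against 23.0% and 20.0% of all genes. Those that rose made up 6.41% and 2.56%, against 24.7% and 22.5% of all genes. Their medians, -0.15 and -0.13, were close to those of the 34. Gtse1, a microtubule-binding protein expressed in G2 and S phase, was at -0.46 ± 0.06 and -0.28 ± 0.06. The condensin subunits Smc2 and Smc4, which fold mitotic chromosomes, fell with IL-1b (-0.27 ± 0.04 and -0.27 ± 0.04), and with LPS the kinesin Kif20b (-0.33 ± 0.05) and the spindle protein Ckap2 (-0.30 ± 0.06) had the smallest p-values. All of these values had edgeR adjusted p under 0.05.

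Among 24 partners in cytokinesis, 15 fell and 2 rose in each treatment, with medians of -0.23 and -0.14. The share that fell, 62.5%, stands against 23.0% and 20.0% of all genes, and the share that rose, 8.33%, against 24.7% and 22.5%. Myh10, a nonmuscle myosin heavy chain of the contractile ring, went from 1456 ± 84.8 to 755 ± 35.2 CPM with IL-1b and 787 ± 40.6 with LPS (SD, n = 4), or -0.95 ± 0.04 and -0.89 ± 0.04. Myh9, the other main nonmuscle myosin, was at -0.41 ± 0.03 and -0.44 ± 0.03, the septin gene Sept7 at -0.54 ± 0.03 and -0.38 ± 0.03, and the small GTPase gene Rhob at -0.42 ± 0.03 and -0.39 ± 0.03. These 4 genes fell in both treatments, and their products also serve the cytoskeleton of cells that are not dividing. Beside them, markers of smooth muscle and pericytes, which are contractile cells, summed to between 4948 and 5346 CPM in control libraries. With IL-1b they summed to 1773 to 1970 CPM and with LPS to 2055 to 2260. Of these 10 markers, 7 fell and 2 rose with IL-1b, and 8 fell and 0 rose with LPS. The shares that fell, 70% and 80%, stand against 23.0% and 20.0% of all genes. Those that rose made up 20% and 0%, against 24.7% and 22.5% of all genes. The part of such cells in these values was not tested.

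S phase genes lay nearer to 0. Of 45, 11 fell and 3 rose with IL-1b and 8 fell and 2 rose with LPS, with medians of -0.07 and -0.06. The shares that fell, 24.4% and 17.8%, were near the 23.0% and 20.0% of all genes. Those that rose, 6.67% and 4.44%, were fewer than the 24.7% and 22.5% of all genes. With IL-1b 36 of the 45 values were below 0, and with LPS 29. Tyms, which makes thymidylate, fell in both (-0.39 ± 0.05 and -0.19 ± 0.05), as did Chaf1b of the histone chaperone CAF-1 (-0.44 ± 0.08 and -0.22 ± 0.08) and Pole, a replicative polymerase (-0.30 ± 0.06 and -0.29 ± 0.06). Hells, a chromatin remodeller, rose in both (0.45 ± 0.07 and 0.35 ± 0.07), and Mcm7 of the replicative helicase rose with LPS (0.16 ± 0.04).

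Of 21 genes of G1 and quiescence, 10 fell and 7 rose with IL-1b, and 7 fell and 6 rose with LPS. As shares these were 47.6% lower and 33.3% higher with IL-1b, against 23.0% and 24.7% of all genes, and 33.3% and 28.6% with LPS, against 20.0% and 22.5%. Those that fell included inhibitors of the cycle, Cdkn2b (p15) at -0.66 ± 0.04 and -0.49 ± 0.04 and Cdkn1a (p21) at -0.42 ± 0.04 and -0.18 ± 0.04, and the atypical cyclin gene Ccng1 at -0.44 ± 0.03 and -0.21 ± 0.03. The D type cyclin gene Ccnd3 fell too (-0.28 ± 0.04 and -0.37 ± 0.04). Myc, a driver of growth and G1 progression, rose (0.42 ± 0.04 and 0.54 ± 0.04). Genes that promote the cycle and genes that restrain it stood on both sides of 0 in this list.

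Factors that act on G2 and mitosis promoters had small fold changes. Of 19, 5 fell and 5 rose with IL-1b (26.3% each way, against 23.0% and 24.7% of all genes), and 3 fell and 5 rose with LPS (15.8% and 26.3%, against 20.0% and 22.5%). These shares were near those of all genes, so the counts are no result about the list, and the values of single genes follow. Foxm1, which activates the late genes, stood at 32.1 ± 0.796 CPM in control, 29.4 ± 0.442 with IL-1b and 28.6 ± 0.478 with LPS (SD, n = 4) and fell in both (-0.12 ± 0.04 and -0.16 ± 0.04, edgeR adjusted p = 0.0173 and 0.00218). Mybl2 (B-Myb) fell in both (-0.18 ± 0.05 and -0.17 ± 0.05). Of the MuvB core, Lin54, which binds the CHR, fell in both (-0.23 ± 0.07 and -0.18 ± 0.07), Lin52 and Lin9 fell with IL-1b (-0.29 ± 0.08 and -0.26 ± 0.08) and were at -0.16 ± 0.07 and 0.10 ± 0.08 with LPS, and Lin37 and Rbbp4 passed in neither. LPS against IL-1b was called for Lin9 (0.36 ± 0.08) and not for Lin52 (0.14 ± 0.08).

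The E2F genes belong to the same list, whose counts were near those of all genes. Those that passed the test rose, and those that did not pass lay on both sides of 0. E2f4, the E2F of DREAM, rose in both (0.10 ± 0.04 and 0.18 ± 0.04), E2f5 rose in both (0.21 ± 0.07 and 0.27 ± 0.07) and E2f3 rose with LPS (0.28 ± 0.07, against 0.17 ± 0.08 with IL-1b). Tfdp2, a dimer partner of E2F, rose with IL-1b (0.25 ± 0.06). E2f1 (-0.23 and -0.21), E2f7 (-0.16 and -0.10) and E2f8 (-0.06 and -0.02) were below 0. E2f2 was above 0 (0.16 and 0.13). E2f1, E2f2, E2f7 and E2f8 passed in neither. Nfya, a subunit of the factor that binds CCAAT, rose in both (0.11 ± 0.03 and 0.13 ± 0.03), whereas Nfyb and Nfyc passed in neither.

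The promoter elements shown above were set beside the fold changes. The 13 genes with TTTGAA had median log2 fold changes of -0.29 with IL-1b and -0.20 with LPS, and the 16 genes with a window and no TTTGAA had -0.15 and -0.13. The 10 with TTTAAA had -0.13 and -0.13, against -0.22 and -0.19 in the 19 without it. With CCAAT (21 genes) the medians were -0.19 and -0.14, and without it (8 genes) -0.17 and -0.16. These medians were not tested.

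**Figure D5:**
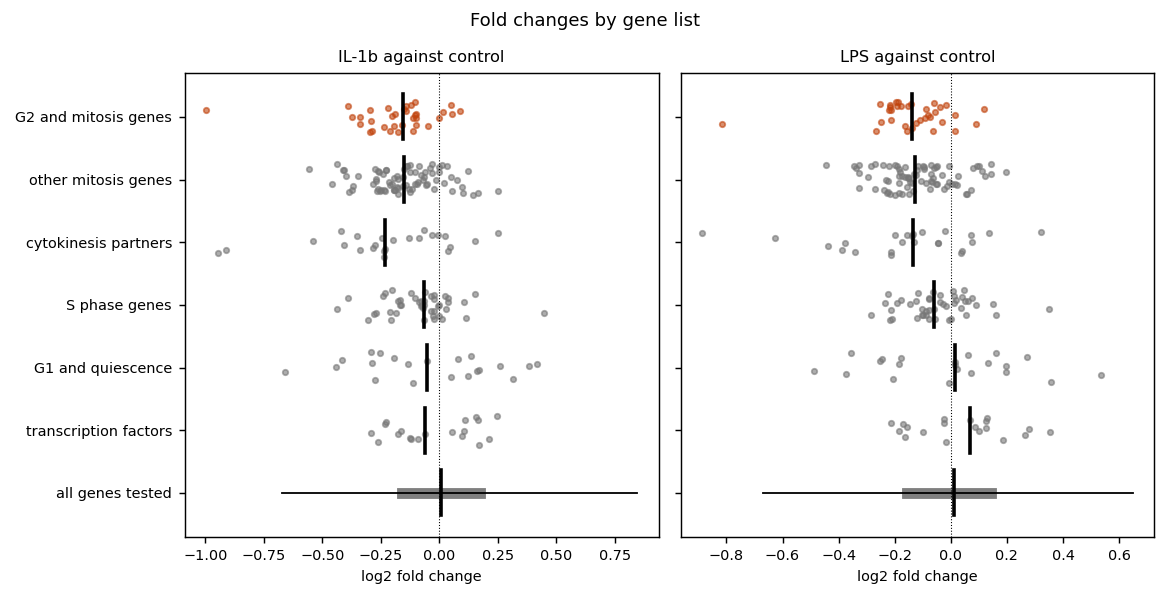
Points are log2 fold changes of single genes in 6 lists, with black bars for the list medians, for IL-1b and LPS against control; the lowest row shows the median, quartiles and 5th to 95th percentiles of all genes tested. The G2 and mitosis genes have medians of -0.16 and -0.14, close to the other mitosis genes, while S phase genes lie nearer to 0 at -0.07 and -0.06.

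The cultures were checked for markers of other cell types. Of 11 theca and steroid synthesis genes with a row, all were detected, though Cyp17a1, the enzyme of androgen synthesis, was at 0.537 ± 0.101 CPM in control cultures (SD, n = 4) and the theca hormone gene Insl3 was below 1 CPM on average. The theca list summed to 529 to 570 CPM in the control libraries, 1024 to 1078 with IL-1b and 943 to 998 with LPS. Of the 11, 8 rose and 1 fell with IL-1b, and 6 rose and 2 fell with LPS. The shares that rose, 72.7% and 54.5%, stand against 24.7% and 22.5% of all genes. The log2 fold changes of this list ran from -0.67 to 4.86 with IL-1b and from -0.72 to 3.16 with LPS. Granulosa genes were also present, at 1025 to 1067, 1539 to 1806 and 1282 to 1466 CPM, with Gja1 (668 CPM) and Inha (279.8 CPM) making up most of the control sum. Of these 8 genes, 5 rose and 1 fell with IL-1b, and 3 rose and 1 fell with LPS. As shares, 62.5% and 37.5% rose, against 24.7% and 22.5% of all genes. The log2 fold changes ran from -1.23 to 1.46 with IL-1b and from -1.32 to 1.43 with LPS. Markers of macrophages summed to between 134 and 143 CPM in the control libraries, 74.5 to 80.6 with IL-1b and 65.5 to 72.9 with LPS. Of the 15, 11 fell and 1 rose with IL-1b, and 12 fell and 1 rose with LPS. The shares that fell, 73.3% and 80%, stand against 23.0% and 20.0% of all genes. The share that rose, 6.67% in each treatment, stands against 24.7% and 22.5%. Endothelial markers summed to 178 to 210, 378 to 431 and 264 to 354 CPM, with 10 and 9 of 10 higher. As shares these were 100% and 90%, against 24.7% and 22.5% of all genes. Lymphocyte markers summed to at most 8.53 CPM, with 5 of 6 below 1 CPM on average. The sum of 8 surface epithelium markers ran from 77.0 to 92.9 CPM over the 12 libraries, but single markers moved both ways. Their log2 fold changes ran from -2.01 to 3.17 with IL-1b and from -2.02 to 3.02 with LPS. In each treatment 3 of these 8 fell and 3 rose (37.5% each way). Of all genes, 23.0% fell and 24.7% rose with IL-1b, and 20.0% fell and 22.5% rose with LPS. No marker in these lists was at 0 in every library. The part of any of these cell types in the lower G2 and mitosis transcripts was not tested.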

How the data were processed

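RNA of 12 cultures was sequenced (stranded libraries of polyadenylated RNA, HiSeq4000, per the labels). The authors deposited whole-number read counts per gene symbol with no normalization. Tools named in the submitters' processing notes are DESeq2, SAMtools and TopHat2 2.1.1, and the build is Rnor_6.0. The counting program and annotation are not given in the sources used here. No row was nearly identical (correlation of at least 0.995, levels within 0.15 log2) to one of the 34 genes.

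Counts were tested in R 4.3.3 with edgeR 4.0.16 (filterByExpr, TMM factors 0.976 to 1.02, glmQLFit robust, glmQLFTest, two-sided), with 1 model of the 3 groups over 12 libraries. Adjustment was by Benjamini-Hochberg over 17330 genes, and a gene with an adjusted p under 0.05 was called. SE is the absolute log2 fold change over the square root of F. Mean log2 levels per library used a prior count of 2. The procedure was tested on simulated data. The members and gene lists were chosen with earlier results of these data known. All 34 genes are named. Values per library are given for the 10 with the smallest p, those with no overlap in both treatments, and those called between treatments. Of other lists, the 3 with the smallest p per treatment, and all transcription factors but 1 that is counted but not reported here, are named. Alternatives were other scalings, filters, thresholds, tools (DESeq2 1.42.0, limma 3.58.1 with voom), fits on 8 libraries, a replicate block and leaving out each library.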

Additional observations from a re-analysis of the deposited data

Results flagged for a closer look

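In 5 of the 102 combinations of gene and group tested, 1 library lay far from the other 3 relative to the range of its group, a rate that chance alone gives in about 1 group of 20. Cdk1 was at 40.2 CPM in IL-1b replicate 2, below the 42.4 to 42.8 CPM of the other IL-1b libraries. Ccnb1 was at 29.7 CPM in control replicate 1, below 32.1 to 32.4 in the other controls. Mki67 was at 248 CPM in LPS replicate 3, above 212 to 217 in the other LPS libraries. Cdca8 was at 22.2 CPM in control replicate 2, below 24.4 to 24.9, and Bub1 was at 44.1 CPM in control replicate 4, above 39.3 to 40.04. The value of Mki67 belongs to the library that was also the highest of its group for 26 of the 34 genes.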

How the results depend on the processing

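Kif23 and 13 other genes of the 19 kept their call with IL-1b in all 22 alternatives run, as did 9 of 17 with LPS (Anln, Aurka, Cdk1, Ect2, Kif23, Kif4a, Mki67, Plk1 and Prc1) and Cdc20 of 3 in LPS against IL-1b. No call changed direction. With library totals alone as the scaling, the median with IL-1b was -0.11 and 10 genes fell with LPS, and at an adjusted p under 0.01, 9 fell with LPS, 1 was higher in LPS against IL-1b and 2202 genes in all passed that comparison. Between LPS and IL-1b, 1 gene (Cenpe) was called lower with limma-voom, DESeq2, the fit on 8 libraries, upper-quartile factors, library totals alone, a stricter filter on low counts or none, and 5 were higher with no filter. Leaving out 1 library at a time, from 9 to 21 genes fell with LPS and 0 to 1 rose, and between LPS and IL-1b 0 to 1 were lower and 1 to 6 higher. The cause of these shifts was not tested.

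Same-numbered libraries of different groups had correlations of their deviations from -0.03 to 0.12, with 1 of 12 pairs over 0.1, and were not taken to pair the samples, since not every pair was over 0.1. As a hint towards pairing, 8 of 12 libraries correlated best with their own number. The median correlation was 0.03 in same-numbered pairs and -0.01 in the 36 other pairs, of which 0 were over 0.1. With the replicate block 24 genes fell with IL-1b, 17 fell with LPS and 5 were higher in LPS against IL-1b, and 8544, 7730 and 4256 genes in all were called, against 8261, 7358 and 3791 without it. Replicates were compared pair by pair over the 15292 to 15816 genes with enough counts. Their squared differences averaged 1.90 to 5.55 times the sampling expectation (chi-square per degree of freedom). The spread was thus above that of sampling alone, and its cause was not tested.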

Other observations

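Among the partners in cytokinesis, 3 genes were singled out after their values were seen. Diaph3, a formin that builds actin filaments and binds the product of Anln, went from 60.4 ± 0.880 CPM in control cultures to 32.1 ± 2.42 with IL-1b and 39.0 ± 3.91 with LPS (SD, n = 4). Its log2 fold changes were -0.91 ± 0.06 (edgeR adjusted p = 7.52e-11) and -0.63 ± 0.06 (adjusted p = 1.83e-08), and it was higher with LPS than with IL-1b (0.28 ± 0.06, adjusted p = 0.0025). Cep55, which recruits the machinery of the final cut to the midbody, fell in both treatments (-0.34 ± 0.07 and -0.20 ± 0.07, adjusted p = 0.000369 and 0.0264). Shcbp1, which binds the product of Racgap1, fell in both as well (-0.35 ± 0.06 and -0.21 ± 0.06, adjusted p = 3.51e-05 and 0.00587).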
